A study of Mus musculus with 30 samples.

Results

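The miR-219 and miR-338 miRNAs of the prefrontal cortex were examined in libraries made by traditional-seq and by PANDORA-seq from Alzheimer's disease (AD) model mice and wild-type (WT) mice. Members were every GENCODE miRNA hairpin whose symbol begins with Mir219 or is Mir338, and a read was counted when its whole sequence matched such a hairpin in the sense direction without a mismatch. This gave 5 of 2202 hairpins (Mir219a-1, Mir219a-2, Mir219b, Mir219c and Mir338), 9 of the 2338 miRNA arm groups that had a read, and 217 of 64221 distinct miRNA sequences. An arm is the side of a hairpin, 5p or 3p, that holds the middle of a read, and arms of different hairpins with the same most abundant read formed 1 arm group. The members held 211189 reads over all 30 libraries, and 0 of these reads also matched a hairpin outside the set.

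All mice were 6 months old, of both sexes and of C57BL6/J background, with hemizygotes of the transgenic 5xFAD line as the AD group and their WT littermates as controls. The libraries fell into 4 groups, with 7 WT and 7 AD libraries of traditional-seq and 8 WT and 8 AD libraries of PANDORA-seq. Every library started from gel-excised RNA of 15 to 50 nt of the prefrontal cortex. In traditional-seq this RNA went directly into adapter ligation, whereas in PANDORA-seq it was treated with T4 polynucleotide kinase (T4PNK), which repairs RNA ends, and with AlkB, which removes methyl groups from bases. The labels put T4PNK first and the study's methods list AlkB first.

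Oligodendrocytes are the cells that wrap axons of the central nervous system in myelin. miR-219 and miR-338 rise when oligodendrocyte precursors leave the cell cycle and mature, and they repress transcripts that hold the precursor state, such as those for Sox6, Hes5 and Pdgfra. Which arm of a hairpin acts on these transcripts was not tested here. A miRNA is cut from a hairpin by Drosha and Dicer, 1 arm is usually retained in Argonaute, and bases 2 to 8 from its 5′ end, the seed, pair with target transcripts.

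The mature sequences of the 2 families were taken from RefSeq (GRCm38.p6), where 5 of 5 member hairpins had an entry, and are shown because each arm carries its own seed, so that arms of 1 hairpin cannot stand for each other. The seed is in capitals. RefSeq's table held no mature entry for miR-219a-2-3p.
mmu-miR-219a-5p: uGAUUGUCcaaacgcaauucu
mmu-miR-219a-1-3p: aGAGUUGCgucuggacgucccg
mmu-miR-338-5p: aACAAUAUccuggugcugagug
mmu-miR-338-3p: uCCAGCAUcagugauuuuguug

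Mir219a-2 lies at chr2:29845631-29845727 on the minus strand (GRCm38), outside any annotated gene other than Mir219b, which lies antisense to it at chr2:29845647-29845711. Mir219a-1 lies at chr17:34024983-34025092 on the minus strand, within an exon of the lincRNA gene Gm26940, and Mir219c lies antisense to it at chr17:34025012-34025071. Mir338 lies at chr11:120014765-120014862 on the minus strand, within an intron of Aatk and in the same direction, with Mir3065 antisense to it. The hairpins of the most abundant members are shown with the mature stretches of RefSeq in capitals. Both Mir219a hairpins give the same miR-219a-5p, while their 3p arms differ.
Mir219a-2 hairpin: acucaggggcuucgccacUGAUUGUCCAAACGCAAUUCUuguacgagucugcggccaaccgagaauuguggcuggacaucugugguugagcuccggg
Mir338 hairpin: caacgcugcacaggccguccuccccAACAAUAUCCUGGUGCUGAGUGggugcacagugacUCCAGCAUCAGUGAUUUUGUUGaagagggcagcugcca

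The traditional-seq libraries held 9370669 to 17053412 reads, of which 35.9% to 50.3% matched a miRNA hairpin. The PANDORA-seq libraries held 54926347 to 105876141 reads, of which 1.51% to 5.54% matched one. The traditional-seq libraries fell into a set of 7 with 44.6% to 50.3% miRNA reads (4 WT and 3 AD) and a set of 7 with 35.9% to 38.5% (3 WT and 4 AD). Intervals and detection limits from read counts cover counting error only. Levels are given as RPM, which is reads per 1000000 reads of the library, and as miRNA-RPM, which is reads per 1000000 reads that matched a miRNA hairpin.

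Nearly all member reads came from 1 arm of Mir219a-2 and from Mir338. The 3p arm of Mir219a-2 gave 186955 reads, miR-338-5p gave 19587, miR-338-3p gave 3103, miR-219a-1-3p gave 968 and the 5p arms of Mir219a-1 and Mir219a-2 together gave 538. Of the reads of these 5p arms, 368 of 369 in traditional-seq and 142 of 169 in PANDORA-seq started near the mature start of miR-219a-5p (from 2 bases before to 4 after it), and most of the other 27 in PANDORA-seq started at the 5′ end of the Mir219a-1 hairpin. The antisense hairpins were close to silent, with 32 reads of the 5p arm of Mir219c, 4 of the 5p arm of Mir219b and 2 of its 3p arm in all libraries together. By mean miRNA-RPM, miR-219a-2-3p ranked 56 of 1668 arm groups with reads in traditional-seq and 67 of 2223 in PANDORA-seq. miR-338-5p ranked 155 and 178, and miR-338-3p ranked 251 and 462.

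miR-219a-2-3p, the arm with the most reads, had 380.2 miRNA-RPM in the lowest, 1270.2 in the median and 2019 in the highest WT library of traditional-seq. In AD libraries of traditional-seq these values were 710.4, 1553 and 3884. In PANDORA-seq they were 1020.1, 2007 and 3574 in WT libraries and 851, 1858 and 3145 in AD libraries. The genotypes overlapped in both protocols, and the highest traditional-seq libraries were both AD (3082 and 3884).

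miR-338-5p had a lowest, median and highest level of 73.3, 122 and 188 miRNA-RPM in WT and of 119.9, 151 and 255 in AD traditional-seq libraries. In PANDORA-seq it had 112, 183 and 495 in WT and 157, 232 and 431 in AD libraries. Its levels never reached those of miR-219a-2-3p in the same protocol, so the leading pair kept its order in every library.

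miR-338-3p, the arm most often studied in oligodendrocytes, was lower, and in traditional-seq its range was wider relative to its median than that of miR-338-5p. Its lowest, median and highest levels were 0.725, 29.9 and 70.0 miRNA-RPM in WT and 10.2, 17.3 and 126 in AD traditional-seq libraries, and 2.99, 15.5 and 23.5 in WT and 6.03, 16.3 and 23.9 in AD PANDORA-seq libraries. The value of 0.725 in WT traditional-seq replicate 6 rested on 3 reads, and the value of 126 in AD traditional-seq replicate 2 on 657, while the lowest PANDORA-seq values rested on 4 reads in WT and 5 in AD. In traditional-seq the ranges of miR-338-5p and miR-338-3p overlapped, whereas in PANDORA-seq they did not.

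The 2 remaining arms were the lowest. miR-219a-1-3p had medians of 6.94 in WT and 7.20 in AD traditional-seq libraries and of 11.7 and 12.6 in PANDORA-seq libraries, again in miRNA-RPM. The Mir219a 5p arms had medians of 4.46, 5.89, 4.88 and 3.79 in the same order, and they had 0 reads in 1 WT traditional-seq library, where 3 reads would have been 0.268 RPM. Counted only from reads near the mature start, an alternative added after seeing the data, miR-219a-5p had medians of 4.23, 5.89, 3.74 and 2.45. On that count miR-219a-1-3p had more reads than miR-219a-5p in 16 of 16 PANDORA-seq libraries (means of 12.9 and 3.48 miRNA-RPM) and in 9 of 14 traditional-seq libraries. miR-338-3p had more reads than miR-219a-1-3p in 12 of 14 traditional-seq and 11 of 16 PANDORA-seq libraries, with overlapping ranges.

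**Figure D1:**
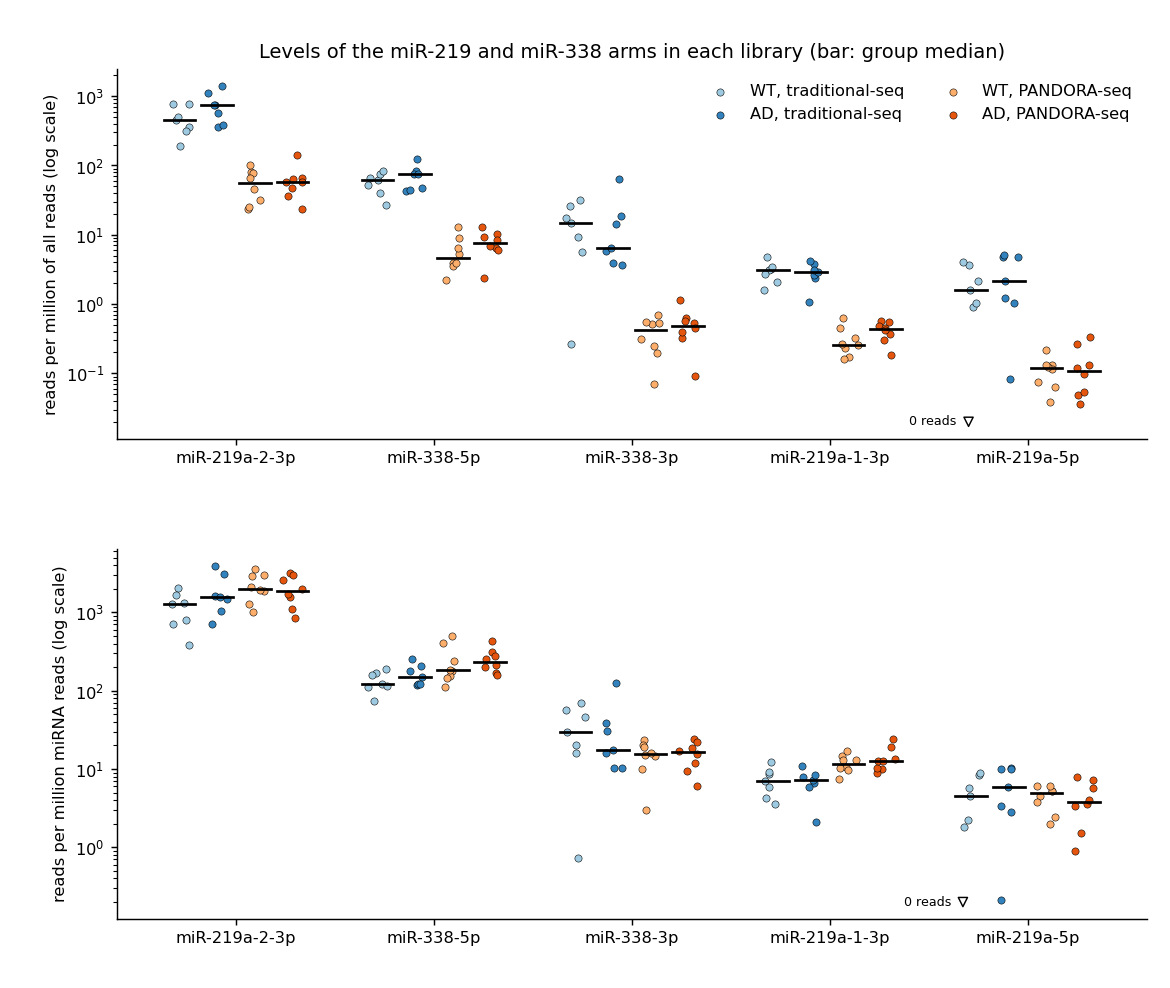
Levels of the 5 main arms in each library, in RPM (upper) and miRNA-RPM (lower), on log axes. Each point is a library, bars are group medians and the open triangle is a library with 0 reads of the Mir219a 5p arms, which are plotted as miR-219a-5p with all their reads. The genotypes overlap for every arm, and the protocols stand apart for miR-219a-2-3p, miR-338-5p and miR-219a-1-3p on the upper scale only.

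The first comparison asked whether members differed between AD and WT mice within a protocol. In bulk tissue, fewer cells of a type and less RNA per cell cannot be told apart, so a level is that of the tissue sample. Of the 9 member arm groups 6 passed the filter on low counts in traditional-seq and 4 in PANDORA-seq, and none of these was called by edgeR's quasi-likelihood test over all miRNA arm groups (Benjamini-Hochberg adjusted p under 0.05). In traditional-seq 0 of the 6 members tested were called, where 0% of 517 arm groups were called, with 8 (1.55%) at an unadjusted p under 0.05, and 0 were called by the likelihood ratio test or by DESeq2. In PANDORA-seq 0 of the 4 members tested were called, where 1 of 614 arm groups (0.163%) was called, lower in AD, with 77 (12.5%) at an unadjusted p under 0.05, 4 called by the likelihood ratio test and 5 by DESeq2.

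miR-219a-2-3p, the most abundant member, was the one with an unadjusted p under 0.05 in traditional-seq. Its level was 480.0 RPM ± 222 (SD, n = 7) in WT and 760.5 RPM ± 383 (n = 7) in AD libraries, and edgeR gave a log2 fold change of 0.81 with a standard error of 0.38 and an adjusted p of 0.998 (unadjusted p 0.0468). The exact permutation test of log2(RPM + 0.1) gave 0.65 (p = 0.12, adjusted p = 0.679). The traditional-seq set with more miRNA reads held lower levels of this arm (380.2 to 1643 miRNA-RPM, median 803) than the other set (1039 to 3884, median 1481). Within these sets the log2 difference of AD from WT was 0.65 (4 WT and 3 AD, exact permutation p = 0.343) and 0.46 (3 WT and 4 AD, exact permutation p = 0.429).

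In PANDORA-seq the same arm had 56.6 RPM ± 29.4 (n = 8) in WT and 61.9 RPM ± 35.7 (n = 8) in AD libraries, and the edgeR log2 fold change was 0.02 with a standard error of 0.27. In miRNA-RPM its mean was lower in AD (2001 against 2211), so its direction depended on the scale. The test of whether the genotype difference itself differed between protocols, the interaction term of edgeR, gave a log2 value of -0.79 for this arm with a standard error of 0.48 (adjusted p = 0.955). In that test 0 of 799 arm groups (0%) were called, 46 (5.76%) had an unadjusted p under 0.05, DESeq2 called 2 and the likelihood ratio test 1, none of them a member.

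miR-338-5p had similar fold changes in both protocols, all within the spread between libraries. Its log2 fold change was 0.31 with a standard error of 0.26 in traditional-seq (57.5 RPM in WT and 70.2 in AD) and 0.31 with a standard error of 0.30 in PANDORA-seq (5.89 and 7.91 RPM), with adjusted p-values of 0.998 and 0.760. For miR-338-3p the log2 fold changes were 0.24 and 0.27, with standard errors of 0.70 and 0.33. The first of these turned to -0.70 without AD traditional-seq replicate 2 and was 0.46 at most without any other library. miR-219a-1-3p gave -0.01 and 0.40, with standard errors of 0.33 and 0.29. The 5p arms of Mir219a-1 and Mir219a-2, which share part of their reads and were tested in traditional-seq, gave 0.54 and 0.61, each with a standard error of 0.63. With a term for a miRNA share over 40%, added after seeing the data, they gave 0.66 and 0.71 and miR-219a-2-3p gave 0.64 (SE 0.34, unadjusted p 0.0773).

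**Figure D2:**
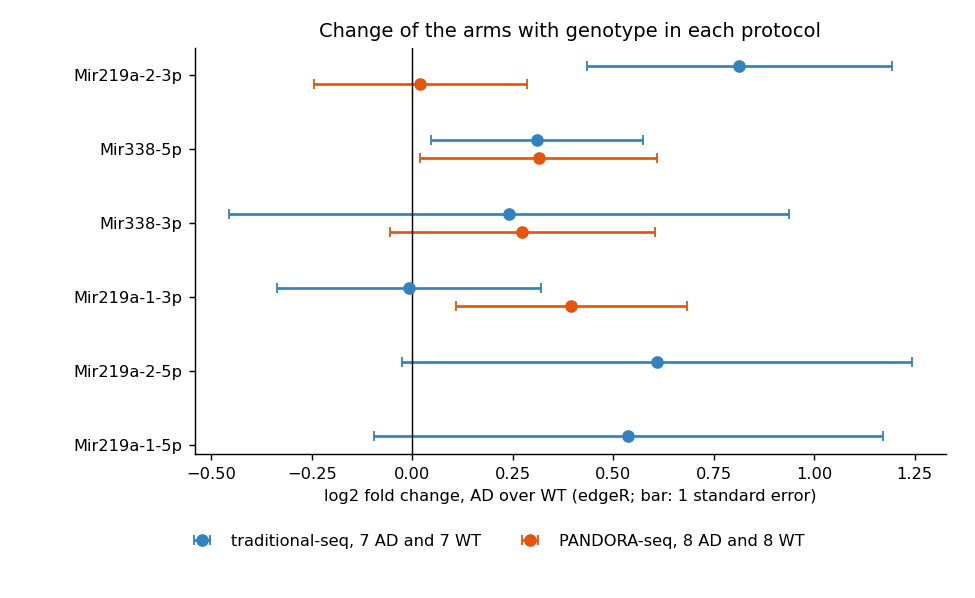
Log2 fold change of AD over WT for each member that passed the filter on low counts, by edgeR in each protocol. Points are estimates and bars 1 standard error, and no member was called, with estimates from -0.01 to 0.81.

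The second comparison was between protocols, over all 30 libraries. Genotype was a term in the edgeR fits and not in the permutation tests. The protocols share 14 file-name codes, and whether a code marks 1 mouse is not stated, so the libraries were treated as independent. In RPM all 5 arms were lower in PANDORA-seq, whose libraries hold far more reads of other RNAs. miR-219a-2-3p had 620 RPM ± 334 (SD, n = 14) in traditional-seq and 59.2 RPM ± 31.7 (n = 16) in PANDORA-seq, 10.4-fold lower on the log2(RPM + 0.1) scale. On the same scale miR-338-5p was 9.68-fold lower, miR-338-3p 19.1-fold, miR-219a-1-3p 6.47-fold and the Mir219a 5p arms 7.39-fold. From reads near the mature start alone, miR-219a-5p was 8.35-fold lower. Each had p = 1e-05 in the permutation test, the smallest that 100000 shuffles can give. The protocols did not overlap for miR-219a-2-3p, miR-338-5p and miR-219a-1-3p. How many of all arm groups did not overlap was not counted. Lower values were common among miRNA arms on this scale. With all reads as library size, edgeR called 486 of 799 arm groups lower and 197 higher, and the median log2 fold change was -1.72.

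Relative to the other miRNA arms the members stood lower in PANDORA-seq, but the sign of the change itself depended on the scale. With edgeR's TMM scaling 6 of 6 members tested were lower and called, where 309 of 799 arm groups (38.7%) were called lower and 382 (47.8%) higher, 695 (87.0%) had an unadjusted p under 0.05, and the median log2 fold change of all arm groups was 0.46. With all reads as library size that median was -1.72, and with DESeq2 size factors it was 0.99. Set against the median of all arm groups, the log2 change was -3.38 for miR-338-3p, -1.70 for miR-219a-2-3p, -1.50 for miR-338-5p and -1.29 for miR-219a-1-3p. The 5p arms of Mir219a-1 and Mir219a-2 stood at -2.80 and -2.58.

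The TMM values themselves were -2.92 for miR-338-3p (SE 0.40, adjusted p = 3.9e-08), -1.24 for miR-219a-2-3p (SE 0.25, adjusted p = 2.5e-05), -1.03 for miR-338-5p (SE 0.21, adjusted p = 4.1e-05) and -0.83 for miR-219a-1-3p (SE 0.22, adjusted p = 0.000876). Without WT traditional-seq replicate 2 the median of all arm groups moved to 0.99 and miR-219a-1-3p to -0.30 (adjusted p = 0.216), past the threshold no longer. With reads of 18 to 26 nt alone, miR-219a-2-3p, miR-338-5p and miR-219a-1-3p were at -0.48, -0.33 and -0.06 (adjusted p = 0.0565, 0.122 and 0.787), and miR-338-3p at -2.17 (adjusted p = 3.9e-06). In miRNA-RPM, by contrast, miR-219a-1-3p was higher in PANDORA-seq by 0.90 on the log2 scale (permutation test, adjusted p = 0.0002), miR-338-5p by 0.66 (adjusted p = 0.00627), miR-219a-2-3p by 0.57 (adjusted p = 0.0804) and the Mir219a 5p arms by 0.24 (adjusted p = 0.673). From reads near the mature start alone, miR-219a-5p was at -0.46 on that scale (permutation test, adjusted p = 0.503), so its direction depended on which reads were counted. miR-338-3p was at -0.67 on that scale (adjusted p = 0.222). Its value was the lowest of the 4 leading arms in RPM, in miRNA-RPM and with TMM.

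The 3′ ends of the members also differed between protocols. The most abundant read of each protocol is shown as deposited, in DNA letters, with the 3′ base present only in the read of traditional-seq in capitals.
miR-219a-2-3p, traditional-seq: agaattgtggctggacatctgT
miR-219a-2-3p, PANDORA-seq: agaattgtggctggacatctg
miR-338-5p, traditional-seq: aacaatatcctggtgctgagT
miR-338-5p, PANDORA-seq: aacaatatcctggtgctgag
miR-338-3p, traditional-seq: tccagcatcagtgattttgtT
miR-338-3p, PANDORA-seq: tccagcatcagtgattttgt

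The longer read of miR-219a-2-3p made up 82.6% ± 4.1 of the arm's reads in traditional-seq (SD, n = 14, range 74.7% to 89.2%) and 10.5% ± 0.83 in PANDORA-seq (n = 16, range 8.97% to 11.9%). The read 1 base shorter made up 3.65% ± 0.78 and 60.9% ± 2.7. For miR-338-5p the longer read made up 92.3% ± 2.0 and 2.14% ± 0.92, while the shorter one went from 2.18% ± 0.90 to 83.3% ± 3.5. For miR-338-3p the longer read made up 86.5% ± 6.2 and 1.97% ± 2.9, over all libraries, of which 1 of traditional-seq and 2 of PANDORA-seq had under 20 reads of this arm. Its shorter read made up 8.56% ± 3.6 (range 0% to 14.9%) and 62.1% ± 23.7 (range 0% to 95%), so the protocols overlapped. No library of one protocol reached the range of the other for the longer read of any of these 3 arms. How many of all arm groups stood apart in this way was not counted. For miR-219a-1-3p they overlapped, with the longer read at 55.7% ± 15.8 (range 27.7% to 85.4%) and 39.2% ± 12.03 (range 16% to 60%) and the shorter one at 11.7% ± 8.9 and 43.7% ± 12.4.

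Counted by length alone, the share of 22-nt reads of miR-219a-2-3p, of 20-nt reads of miR-338-5p and of 21-nt reads of miR-338-3p each differed between protocols at the smallest p the shuffles can give (1e-05, adjusted p = 2.4e-05). Among reads with the common 5′ end, the mean length of miR-219a-2-3p was 21.73 nt in traditional-seq and 20.67 nt in PANDORA-seq. That of miR-338-5p was 21.01 and 19.86 nt, that of miR-338-3p 20.92 and 19.73 nt, and that of miR-219a-1-3p 21.62 and 21.17 nt (permutation test, adjusted p = 0.00032 for the last and 1.3e-05 for the others). The members were not alone in this. Of 451 arm groups with at least 100 reads in both protocols, 284 (63.0%) had a most abundant read 1 base shorter at its 3′ end in PANDORA-seq, and 57 (12.6%) had the same read. Of the 5 members among them 4 were 1 base shorter, and the 5p arm of Mir219a-2 was longer. From its mature start, with reads shared with Mir219a-1, traditional-seq gave 123 reads of 21 nt, 75 of 22 nt and 115 of 23 nt. PANDORA-seq gave 9, 84 and 1, so the top read of this arm led by little in traditional-seq.

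**Figure D3:**
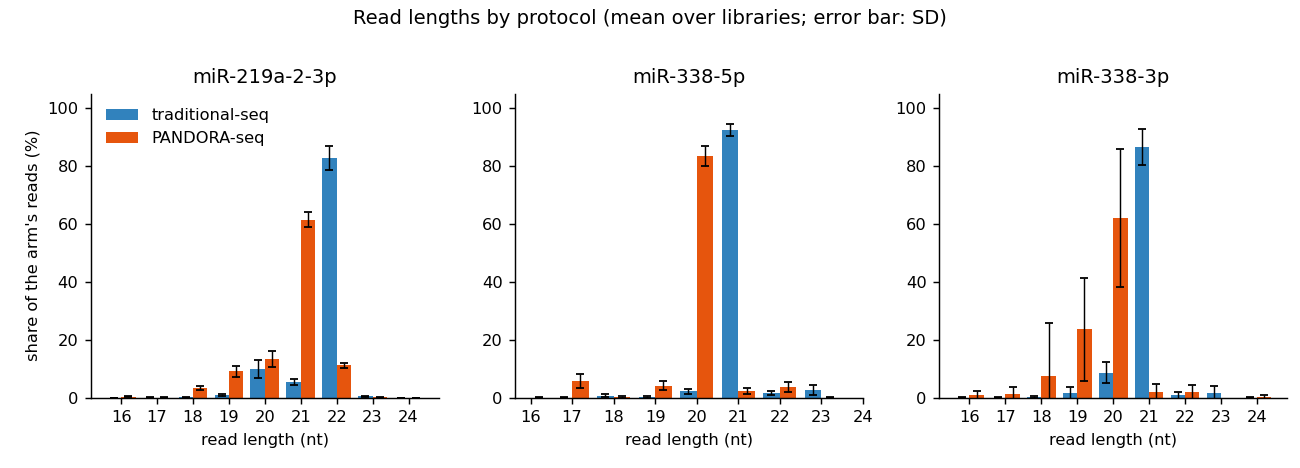
Share of each arm's reads by read length in nt, as the mean over libraries of each protocol with the SD as error bar. The mode moved from 22 to 21 nt for miR-219a-2-3p and from 21 to 20 nt for both arms of Mir338.

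The 5′ ends, which set the seed, moved far less. Reads with the common 5′ end made up 97.2% ± 0.91 of miR-219a-2-3p in traditional-seq and 96.5% ± 0.58 in PANDORA-seq (permutation test, adjusted p = 0.0347), a difference that lost the threshold when any of 10 libraries was left out. For miR-338-5p they made up 98.7% and 97.9% (adjusted p = 0.097), for miR-338-3p 98.9% and 98.5%, and for miR-219a-1-3p 99.01% and 98.7%. The reads that had the common start of miR-219a-1-3p, miR-338-5p and miR-338-3p began where the RefSeq mature sequences begin, at hairpin bases 62, 26 and 61. Those of miR-219a-2-3p began at base 62 of its hairpin.

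Short reads were most frequent in miR-338-5p of PANDORA-seq, where reads of 17 nt made up 5.85% ± 2.3 of the arm, against 0.0356% ± 0.11 in traditional-seq. Reads of 18 to 26 nt made up 99.96% ± 0.11 of this arm in traditional-seq, against 93.9% ± 2.3 (permutation test, adjusted p = 2.4e-05). The same share fell from 99.7% ± 0.45 (n = 13) to 96.7% ± 2.8 (n = 14) in miR-338-3p (permutation test, adjusted p = 0.00046) and from 99.91% ± 0.049 to 99.06% ± 0.26 in miR-219a-2-3p (adjusted p = 2.4e-05).

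None of these shares was called between genotypes over libraries with at least 20 reads. The nearest was the share of miR-219a-2-3p reads of 18 to 26 nt in traditional-seq, 99.88% ± 0.040 in WT and 99.95% ± 0.027 in AD libraries (exact permutation p = 0.0035, adjusted p = 0.0839 over 24 tests of read ends and lengths). The difference was the same over libraries with at least 100 reads, where 12 tests remained and it passed (adjusted p = 0.042).

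A read that carries bases absent from the hairpin at its 3′ end matches no hairpin whole and is not in the counts above. To see these reads, every read that begins with the first 18 bases of an arm was counted, a measure chosen after values of the arms had been seen. The rest of a read from its first mismatch past these bases counted as an addition, so sequencing errors there would be included. Of such reads of miR-219a-2-3p, 32.0% ± 3.9 (range 26.5% to 38.8%) ended in bases absent from the hairpin in traditional-seq and 10.4% ± 4.0 (range 5.81% to 22.1%) in PANDORA-seq. Additions of A alone made up 11.8% and 4.75%, of U alone 7.44% and 3.42%, and of C alone 8.44% and 0.193%, single bases included. Each of these shares differed between protocols by the permutation test (adjusted p = 2.2e-05 over 24 tests).

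The additions differed between arms as well. In miR-338-5p they made up 15.4% ± 4.5 of reads in traditional-seq and 1.07% ± 0.85 in PANDORA-seq, with C at 8.34% and 0.0535% (adjusted p = 2.2e-05 for each). In miR-338-3p they made up 15.2% ± 5.3 (n = 13) and 5.51% ± 4.7 (n = 14, adjusted p = 7.4e-05), with C at 7.76% in traditional-seq and at 0% in every PANDORA-seq library that had 20 such reads. In miR-219a-1-3p they made up 40.2% ± 14.04 and 10.7% ± 5.8 (n = 13, adjusted p = 2.2e-05), led by U at 24.4% and 7.26% (adjusted p = 4e-05). Additions of C to this arm were at only 1.34% and 0% (permutation test, adjusted p = 0.00877). No kind of addition was called between genotypes in these 3 arms or in miR-219a-2-3p (exact permutation, lowest adjusted p = 0.928 over 48 tests), and miR-219a-5p was not tested.

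Additions of G to miR-219a-2-3p stood apart in a pair of libraries. They made up 14.3% of reads in AD PANDORA-seq replicate 1 and 4.11% in AD PANDORA-seq replicate 3, against a median of 0.0680% over the 16 PANDORA-seq libraries. Counting all such reads by their start rather than by a whole match widened the gap of miR-219a-2-3p between protocols from 10.4-fold to 13.9-fold in RPM, that of miR-338-5p from 9.68-fold to 12.1-fold and that of miR-219a-1-3p from 6.47-fold to 10.05-fold, and changed no call between genotypes.

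**Figure D4:**
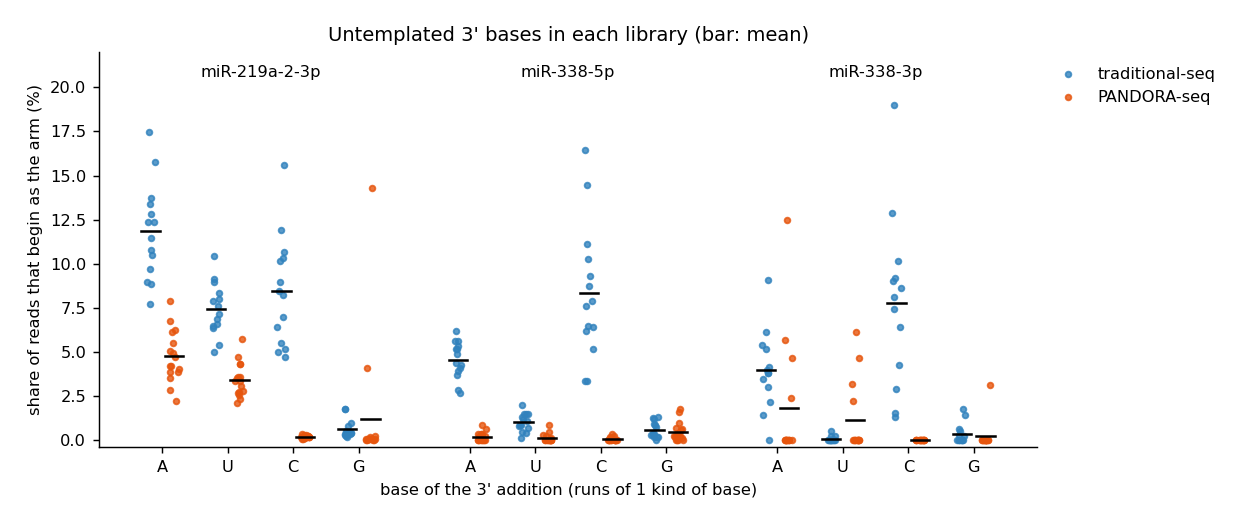
Share of reads that begin as the arm and end in bases absent from the hairpin, by the base added, in each library of traditional-seq and PANDORA-seq. Points are libraries and bars means, and additions of C were at 8.44%, 8.34% and 7.76% in traditional-seq against 0.193%, 0.0535% and 0% in PANDORA-seq.

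Arm use was compared as the 3p share of a hairpin's matched reads. In Mir338 the 3p arm held 16.8% ± 11.8 of reads in traditional-seq (range 0.980% to 45.5%) and 6.24% ± 2.5 in PANDORA-seq (range 1.91% to 11.5%), and the shares differed by the permutation test (adjusted p = 0.0003). In Mir219a-2 the 3p arm held 99.6% ± 0.42 and 99.8% ± 0.11 (adjusted p = 0.0126). In Mir219a-1 it held 73.5% ± 18.8 and 89.9% ± 6.0 (adjusted p = 0.00553), counting reads of miR-219a-5p that both hairpins could have given under each hairpin. Near the mature start such shared reads numbered 142 in traditional-seq and 27 in PANDORA-seq, against 29 and 3 that matched Mir219a-1 only. The part of the shared reads in the Mir219a-1 difference was not tested, so it cannot be read as a change in arm use of that hairpin. None of the 6 tests of genotype in these shares passed (exact permutation, adjusted p = 0.885 in each).

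miR-219a-5p can come from either Mir219a hairpin, and only reads that run past the shared mature sequence or start away from it can be assigned. Near the mature start, 226 reads of traditional-seq (61.4%) and 115 of PANDORA-seq (81.0%) matched 1 hairpin only. Of these, 87.2% came from Mir219a-2 in traditional-seq (exact Clopper-Pearson 95% interval 82.1% to 91.2%) and 97.4% in PANDORA-seq (92.6% to 99.5%). A U added to a shared read cannot be told apart from the next base of Mir219a-2, nor an added C from the next base of Mir219a-1. The reads of 22 nt from the mature start that matched Mir219a-1 only numbered 13 in traditional-seq and 1 in PANDORA-seq, and the part of added bases in the shares of either hairpin was not tested. The mean share of assignable reads was 64.6% in WT and 58.0% in AD libraries of traditional-seq and 76.0% and 83.0% in those of PANDORA-seq, within the spread between libraries (exact permutation p = 0.647 in traditional-seq and 0.729 in PANDORA-seq). These shares were taken over every library with such a read, and without AD PANDORA-seq replicate 5, which had 3 reads of miR-219a-5p, the PANDORA-seq difference of AD from WT moved from 6.92 to 18.8 percentage points (exact permutation p = 0.0379). In traditional-seq it ran from -13.6 to 0.257 points when each library was left out. PANDORA-seq also gave 17 reads of 19 nt that start at the 5′ end of the Mir219a-1 hairpin, against 0 in traditional-seq, and these count in the Mir219a-1 5p arm without being miR-219a-5p.

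Members were then set against each other across libraries, on log2(miRNA-RPM + 1), with Pearson's r, Spearman's rho and permutation p-values adjusted over 20 relations. In the 16 PANDORA-seq libraries miR-219a-2-3p rose with miR-338-5p (r = 0.67, adjusted p = 0.0291, rho = 0.71, adjusted p = 0.0235) and with miR-338-3p (r = 0.73, adjusted p = 0.0105, rho = 0.75, adjusted p = 0.0235). Without the 2 libraries farthest from the median of miR-219a-2-3p these values of r were 0.65 and 0.66. miR-338-5p and miR-338-3p, which are cut from the same hairpin, gave r = 0.57 (adjusted p = 0.0673). The levels share their denominator, and miR-338-3p also rose with the logarithm of the library's total reads (r = 0.62), whose part in the relation was not tested.

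Over all 14 traditional-seq libraries miR-219a-2-3p gave r = 0.26 with miR-338-5p (permutation, adjusted p = 0.599) and -0.38 with miR-338-3p (adjusted p = 0.337). There miR-219a-5p gave r = 0.81 with miR-338-3p (adjusted p = 0.005, for rho 0.0235) and 0.69 with miR-338-5p (adjusted p = 0.0291, for rho 0.173). These libraries were also described within their sets of higher and lower miRNA share, a split made after seeing the data, since the sets are separate clusters. miR-219a-2-3p and miR-338-5p gave r = 0.69 and 0.65 within them (7 libraries each, exact permutation p = 0.0863 and 0.118). miR-219a-2-3p and miR-338-3p gave -0.38 and 0.22 (exact permutation p = 0.402 and 0.668). miR-338-5p and miR-338-3p gave -0.07 in the first set and 0.80 in the other (exact permutation p = 0.892 and 0.0579). miR-219a-5p and miR-338-3p gave 0.63 and 0.79 (exact permutation p = 0.160 and 0.00893). None of these relations within sets passed the adjustment, the lowest adjusted p being 0.179. Levels were then centred on the mean of each set, an alternative added after seeing the data with 10 relations over 14 libraries. miR-219a-5p and miR-338-3p then gave r = 0.74 (permutation, adjusted p = 0.0087). Their rho was 0.58 (permutation, adjusted p = 0.160), and r was 0.65 without the 2 farthest libraries. miR-219a-2-3p and miR-338-5p gave r = 0.66 (permutation, adjusted p = 0.0528) and rho = 0.73 (adjusted p = 0.0405). miR-219a-2-3p and miR-338-3p gave r = -0.03 (permutation, adjusted p = 0.935).

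**Figure D5:**
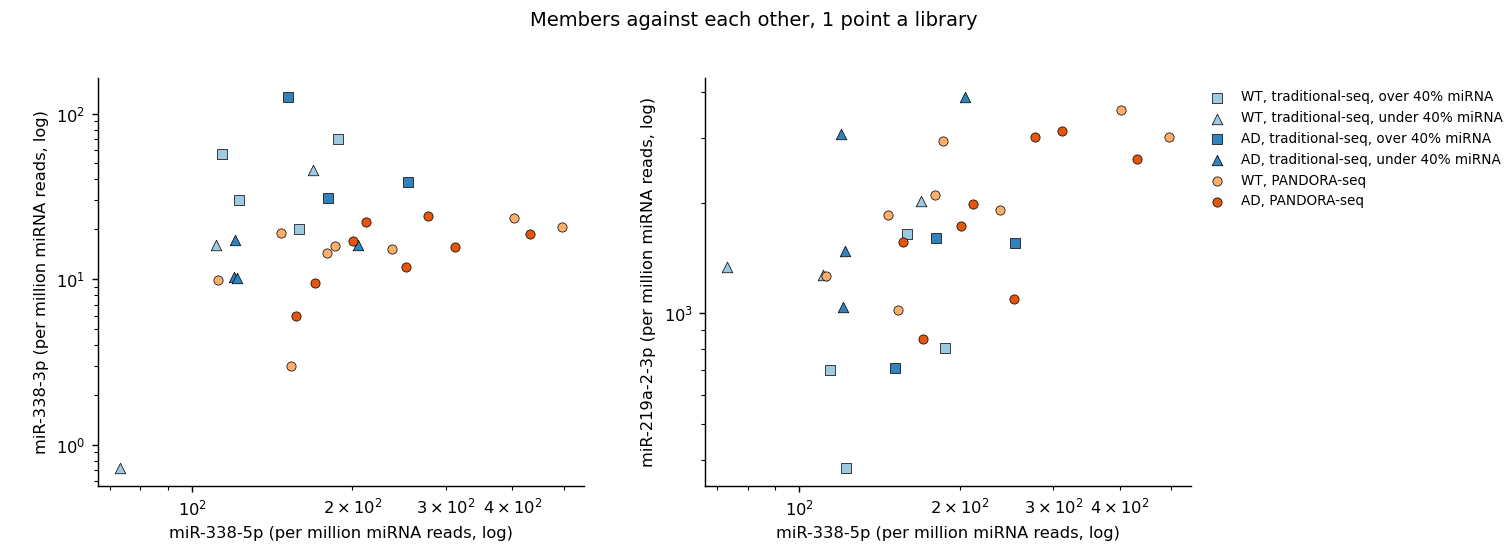
miR-338-3p (left) and miR-219a-2-3p (right) against miR-338-5p, each in miRNA-RPM on log axes, with 1 point a library. Squares and triangles are traditional-seq libraries over and under 40% miRNA reads and circles are PANDORA-seq libraries. miR-219a-2-3p rose with miR-338-5p among the circles (r = 0.67), and miR-338-3p spread from 0.725 to 126 in traditional-seq.

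As a description with no test, the arm groups most like miR-219a-2-3p across the 14 traditional-seq libraries, among 180 with a mean of at least 100 miRNA-RPM, were Mir532-5p (r = 0.95), Mir148b-3p (0.94), Mir30c-2-3p (0.94), the shared 3p arm of Mir92-1 and Mir92-2 (0.93) and Mirlet7i-5p (0.92). Across the 16 PANDORA-seq libraries the same pairs gave 0.63, 0.79, -0.04, 0.48 and 0.53. Those most like miR-338-5p in traditional-seq were Mir27b-3p (0.84), Mir27a-3p (0.83), the shared 5p arm of Mir125b-1 and Mir125b-2 (0.75), Mir383-5p (0.71) and Mir337-5p (0.71), with 0.49, 0.41, 0.46, 0.34 and 0.36 in PANDORA-seq. The libraries share their split by miRNA content, whose part in these likenesses was not tested.

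Other miRNAs studied in the oligodendrocyte lineage were described beside the members. Of 19 such hairpin symbols 17 were in the annotation, among them Mir138-1 and Mir138-2, known from differentiating oligodendrocytes, Mir23a, which represses lamin B1, and the Mir17 cluster, known from precursor proliferation. Their arm groups gave 0 of 21 called between genotypes in traditional-seq (0% of all) and 0 of 19 in PANDORA-seq (0.163% of all). Their median log2 fold changes were -0.05 and 0.02, beside -0.00 and 0.04 for all arm groups. In traditional-seq 9 of 21 were above 0 (49.9% of all), with values from -0.34 to 0.79. In PANDORA-seq 11 of 19 were above 0 (53.9% of all), with values from -0.70 to 0.88. Mir23a-3p gave 0.59 in traditional-seq and 0.64 in PANDORA-seq, and the shared 3p arm of Mir92-1 and Mir92-2 gave 0.79 and 0.09, with adjusted p-values of 0.649 or more.

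Between protocols the oligodendrocyte list split, with 7 of 21 called higher and 14 called lower in PANDORA-seq (47.8% and 38.7% of all) and a median log2 change of -1.30 beside 0.46 for all arm groups. Those higher included Mir125a-3p (2.995), Mir125a-5p (0.91), the shared 5p arm of Mir125b-1 and Mir125b-2 (1.11) and the shared 3p arm of Mir92-1 and Mir92-2 (1.90). Those lower included Mir138-1-5p (-1.80), Mir23a-3p (-1.53), Mir27a-3p (-1.23) and Mir32-5p (-3.70). The summed level of the list was nevertheless higher in PANDORA-seq. Its medians there were 53852 miRNA-RPM in WT and 59870 in AD libraries, against 9505 and 8918 in traditional-seq. A lower median log2 change was not particular to this list. The neuron list had a median of -2.06, with 14 of 19 called lower and 2 higher, the microglia and immune list -2.72, with 6 of 7 lower, the endothelial and mural list -1.66, with 4 of 6 lower, and the erythroid list 0.39, with 1 of 5 lower and 2 higher. Of the 21 of the oligodendrocyte list, Mir32-5p alone was farther below the median of all arm groups than miR-338-3p.

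Markers of other cells were present in every library. In the sums below, a read that matched several arm groups of a list counts in each, so a sum can exceed the list's share of miRNA reads. The neuron list, led by Mir128-1, Mir128-2 and Mir9, had median sums of 393350 miRNA-RPM in WT and 372545 in AD traditional-seq libraries and of 270138 and 222093 in PANDORA-seq libraries, with a lowest sum of 96931 in AD PANDORA-seq and a highest of 753544 in WT traditional-seq. The list of microglia and immune miRNAs, led by Mir21a-5p and Mir146b-5p, summed to 4538 to 14198 in WT and 6554 to 14827 in AD traditional-seq libraries, and 6 of its 6 arm groups tested had a log2 fold change above 0 there (median 0.92), where 49.9% of all 517 arm groups were above 0 with a median of -0.00, and 0 were called (0% of all). In PANDORA-seq 4 of 6 were above 0 (53.9% of all 614) and its median was 0.02 beside 0.04 for all, with 0 of 6 called (0.163% of all). No arm group of any list was at 0 in all libraries. The medians of the endothelial and mural list, which shares Mir145a with the oligodendrocyte list, were -0.03 and 0.18, and those of the erythroid list -0.15 and -0.12, again with 0 called of 6 and of 5 in each protocol (0% and 0.163% of all). The neuron list had medians of -0.19 and -0.09, with 0 of 17 called in each protocol. In traditional-seq 3 of 17 of the neuron, 1 of 6 of the endothelial and mural and 1 of 5 of the erythroid list were above 0. In PANDORA-seq these counts were 8 of 17, 4 of 6 and 2 of 5. Whether the cell makeup of the samples had a part in the members' levels was not tested.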

How the data were processed

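Small RNA of 30 libraries was analysed from the deposited counts of reads per distinct sequence, raw and not annotated, which the authors made from adapter-trimmed reads. The study ran its raw reads through the SPORTS pipeline, with defaults apart from the mismatch tolerance. Whether that pipeline made the deposited files is not given in the sources used here. The submitters' processing notes name genome build mm39, whereas sequences were matched here to GENCODE vM21 hairpins (GRCm38), whole, sense and with 0 mismatches, so no coordinates of the files were used. Of the 108643672 miRNA reads, 9059561 matched several arm groups and were counted in each. Columns of per-sample values not used numbered 0. Members and lists were chosen with earlier results of these data known.

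Counts per arm group were tested with edgeR 4.0.16 (TMM, filterByExpr, quasi-likelihood test, Benjamini-Hochberg adjusted p under 0.05) in R 4.3.3, and fold changes are AD over WT or PANDORA-seq over traditional-seq. DESeq2 1.42.0 was an alternative. Single values were tested by two-sided exact permutation (smallest p 0.000583 for 7 against 7 and 0.000155 for 8 against 8) or 100000 shuffles, with RPM as log2(RPM + 0.1) and tested shares over libraries with at least 20 reads (shares of the most abundant reads and of assignable miR-219a-5p reads over every library with a read), in Python 3.11.15 with scipy 1.17.1. Scripts were tested on simulated data. Named were all arms of the members with 20 or more reads, and for likeness the 5 arm groups with the highest r.

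The labels number replicates within a group. Deviations of same-numbered WT and AD libraries correlated between -0.42 and 0.40 in traditional-seq and between -0.47 and 0.43 in PANDORA-seq, and those of libraries with the same file-name code in both protocols between -0.11 and 0.30, so libraries were not treated as pairs. The study counts each library of a group as 1 mouse, which the labels do not state, so p-values measure the spread between libraries. Alternatives were other scalings, filters, tools, read lengths (18 to 26 nt), sequences of 1 arm group, the replicate number as a block, pseudocounts and each library left out. A term for miRNA share over 40%, reads counted by their first 18 bases, miR-219a-5p counted from reads near its mature start (elsewhere it counts all reads of both Mir219a 5p arms) and correlations centred on the sets of miRNA share were added after seeing the data.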

Additional observations from a re-analysis of the deposited data

Results flagged for a closer look

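Within each group of libraries, the highest and lowest value of each measure was compared with its nearest neighbour by Dixon's ratio. Of 97 groups tested 15 held a library that stood apart at the 95% level, and chance gives about 1 in 20. Most of these were shares near 100%.

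Levels and arm use stood apart in AD traditional-seq replicate 2. miR-338-3p was at 126 miRNA-RPM there, against 38.7 in the next library and a group median of 17.3, and the 3p share of Mir338 was 45.5%, against 14.6% in the next. In AD PANDORA-seq replicate 8 the 3p share of Mir219a-2 was 99.6%, against 99.8% in the next library. In AD PANDORA-seq replicate 1 the reads of miR-219a-2-3p with added 3′ bases made up 22.1%, against 12.3% in the next library.

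Of the shares of reads at the common 5′ end, miR-219a-2-3p was at 94.3% in WT traditional-seq replicate 1, and miR-219a-1-3p at 92.6% in WT PANDORA-seq replicate 1, at 92% in AD PANDORA-seq replicate 5 and at 95.7% in WT traditional-seq replicate 3. miR-219a-5p was at 85.7% in AD traditional-seq replicate 3, and miR-338-3p at 92.9% in WT PANDORA-seq replicate 4 and at 94.1% in WT traditional-seq replicate 5. Of the shares of 18 to 26 nt, miR-219a-1-3p was at 98.2% in WT PANDORA-seq replicate 6, and miR-338-5p at 99.89% in WT traditional-seq replicate 4 and at 99.61% in AD traditional-seq replicate 7. The share of 21-nt reads of miR-338-3p was 6.35% in WT PANDORA-seq replicate 6.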

How the results depend on the processing

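No member was called between genotypes under any alternative fit, and all 5 arms kept their lower RPM in PANDORA-seq with pseudocounts of 0.1 and 1, with reads of 18 to 26 nt and without each library. The count of called arm groups moved in several fits. Without a filter on low counts it was 2 in traditional-seq, 13 in PANDORA-seq, 1339 between protocols and 1 for the interaction. In PANDORA-seq it was 5 with DESeq2, 4 with the likelihood ratio test, and 0 with all reads as library size or with reads of 18 to 26 nt. For the interaction it was 2 with DESeq2 and 1 with the likelihood ratio test. With at least 100 reads, 1 share of read ends or lengths differed between genotypes, that of 18 to 26 nt of miR-219a-2-3p in traditional-seq, with fewer tests. With the replicate block, which the data did not bear out as a pairing, 0 were called in PANDORA-seq and 677 between protocols. The log2 fold change of miR-338-3p turned to -0.15 in traditional-seq, where it was called in neither fit. The block changed no call of a member.

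With reads of 18 to 26 nt the log2 change between protocols was -0.48 for miR-219a-2-3p (adjusted p = 0.0565) and -0.33 for miR-338-5p (adjusted p = 0.122). With sequences of 1 arm group it was -0.48 (adjusted p = 0.0674) and -0.25 (adjusted p = 0.245), so both lost their call, as did miR-219a-1-3p at -0.06 in each (adjusted p = 0.787 and 0.793). With sequences of 1 arm group the 5p arm of Mir219a-2 lost its call (-0.86, edgeR adjusted p = 0.081), and that of Mir219a-1 had no value. miR-338-3p kept its call in both settings. With DESeq2 size factors miR-219a-1-3p lost it too (-0.29, adjusted p = 0.198). The causes were not tested. Changes against the median of all arm groups stayed negative in all of these. Between genotypes in PANDORA-seq, miR-219a-2-3p turned to -0.036 with reads of 18 to 26 nt, to -0.046 with sequences of 1 arm group and to -0.16 in miRNA-RPM, where the Mir219a 5p arms turned to -0.23. Counted from reads near the mature start, the log2 difference in RPM of miR-219a-5p turned to -0.016. The interaction of miR-338-5p turned to -0.020 with DESeq2 or its size factors. In miRNA-RPM the protocol difference turned to 0.57 for miR-219a-2-3p, 0.90 for miR-219a-1-3p, 0.24 for the Mir219a 5p arms and 0.66 for miR-338-5p. With reads counted by their start, miR-219a-1-3p turned to 0.0070 in traditional-seq. With reads of 18 to 26 nt, the genotype difference in the 3p share of Mir219a-2 in PANDORA-seq turned to -0.0077 points and the protocol difference in the 5′-end share of miR-338-3p to 0.344 points.

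Correlations near 0 turned as well. In PANDORA-seq miR-219a-5p and miR-338-5p went to 0.013 centred on genotype, 0.30 in RPM and 0.033 with 18 to 26 nt, miR-219a-1-3p and miR-219a-5p to 0.35 in RPM and 0.26 with 18 to 26 nt, and miR-219a-1-3p and miR-338-5p to 0.36 in RPM. In traditional-seq miR-219a-2-3p and miR-219a-5p went to 0.38 centred on the sets of miRNA share and to 0.039 in RPM, and miR-219a-1-3p and miR-338-5p to 0.083 centred on the sets.

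Leaving out 1 library gave these ranges for results that changed. Arm groups called in PANDORA-seq numbered 1 to 2, with 2 without WT PANDORA-seq replicate 8 or AD PANDORA-seq replicate 5. Between protocols miR-219a-1-3p ran from -0.89 to -0.30, losing its call without WT traditional-seq replicate 2. Between genotypes the edgeR value ran from -0.12 to 0.16 for miR-219a-1-3p and from -0.70 to 0.46 for miR-338-3p in traditional-seq, and from -0.12 to 0.11 for miR-219a-2-3p in PANDORA-seq. The interaction ran from -0.18 to 0.99 for miR-338-3p and from -0.14 to 0.28 for miR-338-5p. The log2 difference in RPM ran from -0.22 to 0.12 (miR-219a-1-3p), -0.13 to 1.05 (miR-219a-5p) and -0.59 to 0.48 (miR-338-3p) in traditional-seq, and from -0.051 to 0.32 (miR-219a-2-3p) and -0.062 to 0.18 (miR-219a-5p) in PANDORA-seq. Genotype differences in 3p share, in percentage points, ran from -0.674 to 3.03 for Mir219a-1, -0.00024 to 0.0617 for Mir219a-2 and -1.25 to 0.111 for Mir338 in PANDORA-seq, and from -0.0961 to 0.175 for Mir219a-2 and -7.46 to 0.0695 for Mir338 in traditional-seq. Protocol differences in the 5′-end share ran from -0.872 to -0.590 for miR-219a-2-3p, where 10 libraries each ended the call (WT PANDORA-seq 4 and 5, AD PANDORA-seq 1 and 3, WT traditional-seq 3 and 5, and AD traditional-seq 1 to 4), from -0.942 to -0.606 for miR-338-5p, which passed without WT PANDORA-seq replicate 3 or AD PANDORA-seq replicate 5, from -0.627 to 0.227 for miR-219a-1-3p and from -0.731 to 0.101 for miR-338-3p. The share of assignable miR-219a-5p reads ran from -13.6 to 0.257 points in traditional-seq and from 3.97 to 18.8 in PANDORA-seq, the last without AD PANDORA-seq replicate 5 (exact permutation p = 0.0379). Depth limits the Mir219a 5p arms, which had 28 reads or fewer in every PANDORA-seq library.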
